A study of Rattus norvegicus with 16 samples.

Results

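The genes described here were 77 members of 11 rat solute carrier families that move inorganic ions and metals across membranes, of 26115 named features on the array. They were taken by name alone, as every feature named for the families Slc4, Slc8, Slc9, Slc11, Slc12, Slc20, Slc26, Slc30, Slc34, Slc39 or Slc40, so no measured value entered the choice. Each gene was followed by 1 probe, a fixed oligonucleotide on the array, namely the one with the brightest mean tissue signal; 18 of the 77 genes had several probes. The name rule also took in Slc9a3r1, Slc9a3r2 and Slc4a1ap, which encode adaptor or partner proteins and not transporters. The families held 11 members in Slc4, 3 in Slc8, 11 in Slc9, 2 in Slc11, 9 in Slc12, 2 in Slc20, 10 in Slc26, 10 in Slc30, 3 in Slc34, 15 in Slc39 and 1 in Slc40.

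RNA came from the stomach and from the middle part of the intestine of suckling Wistar Han rats (Wistar in the labels). OH rats (NOH in the sample labels) were given the peptide obestatin enterally at 250 nmol per kg body weight and C rats (NC in the labels) saline, 2 times a day from the 14th day of life, and all were killed on day 21. Both tissues were measured in both treatments, on 4 arrays each, and each array stood for 1 rat; whether the same rat gave both tissues of a number is not given in the sources used here. Whole litters were assigned to a treatment, which limits how far the rats of a group stand for separate replicates. Tissue RNA was labelled with Cy5 and hybridised against a Cy3 reference, a pool of RNA from all animals, with no dye swap. All values below are log2 ratios of tissue to that reference unless another quantity is named, so a difference of 1 is a doubling of the ratio. The region of the stomach sampled is not given in the sources used here, and stomach of this species has a glandular and a squamous part.

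The families divide the work of ion handling in the gut wall. Slc4 and Slc26 proteins exchange chloride, bicarbonate or sulfate, Slc9 proteins exchange sodium for protons, and Slc12 proteins carry chloride together with sodium or potassium. In the acid-secreting parietal cell, basolateral anion and sodium-proton exchangers return bicarbonate to the blood and admit chloride while the proton pump acidifies the lumen. In the villus enterocyte, an apical sodium-proton exchanger working beside an apical chloride-bicarbonate exchanger absorbs salt. Slc34 and Slc20 proteins take up phosphate with sodium, Slc8 proteins exchange sodium for calcium, Slc30 proteins move zinc out of the cytosol, Slc39 proteins move zinc and related metals into it, Slc11 proteins import iron and manganese with protons, and Slc40 is the only known cellular iron exporter.

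Each group lay on a slide of its own. The slides of the OH rats shared a scan day and those of the C rats shared a different one. Effects of the treatment and of slide or scan day therefore cannot be told apart. Stomach and intestine of the same treatment were compared on the same day but between slides, so tissue and slide cannot be told apart either. Median Cy5 signals ranged from 163 to 328 over the arrays; median Cy3 signals of the same reference pool were 188 to 195 on the C slides and 341 to 399 on the OH slides. In bulk tissue, fewer cells of a type and less RNA per cell cannot be told apart. All 13 markers of the oxyntic and surface mucosa were higher in stomach and 12 of 13 enterocyte markers were higher in intestine in both treatments and so followed the labels. Of 12 striated muscle markers tested, 10 were higher in C stomach than in C middle intestine; their mean log2 ratio was 3.24 to 4.05 on 3 C stomach arrays, -0.73 on C stomach replicate 2 and -0.28 to 0.96 on the OH stomach arrays. The mean of the pancreas markers was -1.66 on OH middle intestine replicate 4 and -3.46 to -3.25 on the other 3 arrays of that group. On stomach arrays it was -0.92 to -0.22 in C and -1.26 to -0.21 in OH rats. Of 9 pancreas markers tested, 7 were higher in stomach in C and 6 in OH rats. Of 9 forestomach markers tested, 8 were higher in stomach in both treatments. The part of those tissues in the results below was not tested. Members whose tissue call changed without both C stomach replicate 2 and OH middle intestine replicate 4 are given below with their values.

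A member counted as detected where its probe was well above background in Cy5. It was so on all 16 arrays for 55 members, on 1 to 15 arrays for 20 members and on no array for 2, Slc26a4 and Slc4a5. All 4 arrays detected 66 of 77 members in C stomach (85.7%, against 67.5% of all named features), 63 in OH stomach (81.8% against 66.8%), 57 in C middle intestine (74% against 62.3%) and 58 in OH middle intestine (75.3% against 63.8%). Every array detected the Slc20 and Slc40 members. The Slc39 members were detected in 93.3% to 98.3% of cases by group, and the Slc26 members in 75% in both stomach groups but 57.5% in C and 50% in OH middle intestine, where 4 of 10 were detected on no array.

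Slc9a4, Slc26a7 and Slc9a7 were detected on all 8 stomach arrays and on 0 of 8 intestine arrays. Slc34a2, the apical phosphate transporter of the small intestine, was the only member with the reverse pattern, on 8 of 8 intestine and 0 of 8 stomach arrays. Slc39a2, a zinc importer, was detected on 3 C stomach and 2 OH stomach arrays and on no intestine array, and Slc30a10, a manganese exporter, on 1 C and 2 OH intestine arrays and on no stomach array. The map of detections shows these blocks beside members that were near the background in every group.

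**Figure D1:**
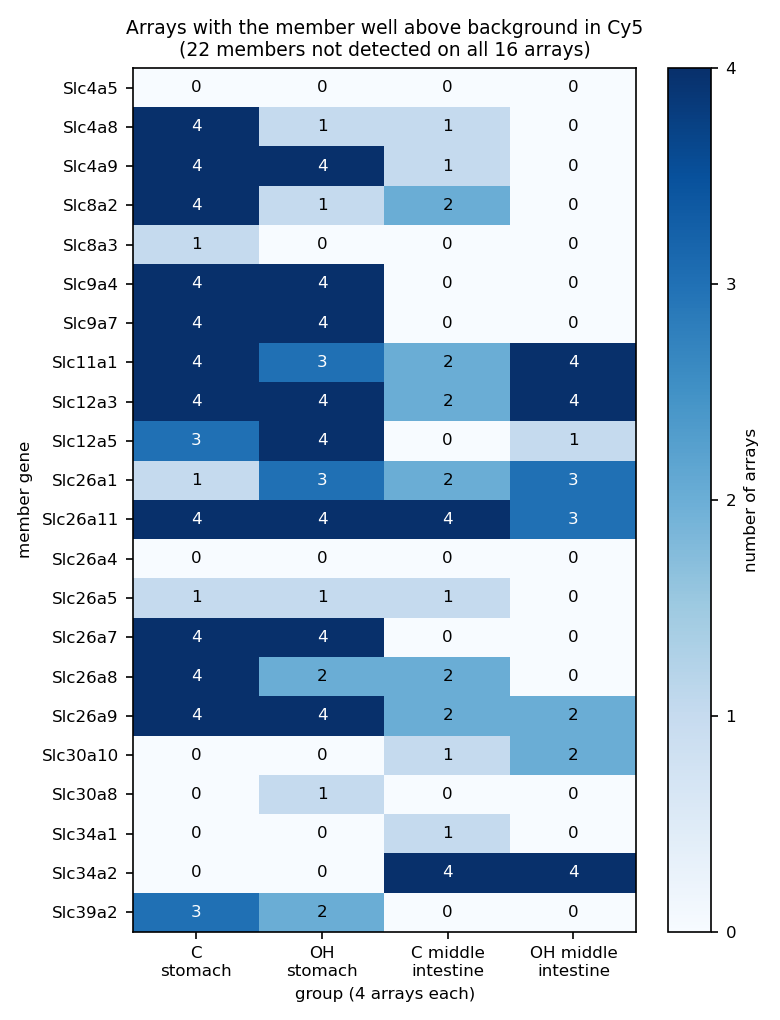
Number of arrays, of 4 in each group, on which each of the 22 members not detected on all 16 arrays was well above background in Cy5; columns are the groups and darker cells mean more arrays. Slc9a4, Slc9a7 and Slc26a7 show 4 in both stomach groups and 0 in both intestine groups, and Slc34a2 shows the opposite.

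Stomach and intestine differed in over 1 in 2 of the tested members, more often with the higher ratio in intestine. Probes were tested where all 4 arrays of at least 1 group detected them, which left 68 of the 77 members and 18272 of all named features; the 9 members not tested were Slc4a5, Slc8a3, Slc26a1, Slc26a4, Slc26a5, Slc30a8, Slc30a10, Slc34a1 and Slc39a2. In C rats 16 members were higher in stomach (23.5%, against 22% of all genes tested) and 22 were lower (32.4% against 22.9%), by limma with Benjamini-Hochberg adjustment over all probes and a threshold of 0.05. In OH rats 15 were higher in stomach (22.1% against 19.1%) and 25 lower (36.8% against 19.3%). The OH and C tissue comparisons share no array, but they share the reference pool. They also share 1 estimate of the spread, taken over all 16 arrays, and so are not independent tests. In both of them, 13 members were higher in stomach (background 15.4%), 19 were lower (background 16%) and 0 were called in opposite directions. The share higher in stomach was thus near that of all genes, and the share lower was above it. The median difference of the members was -0.08 in C and -0.13 in OH rats, and the median size of the difference was 0.72 and 0.75, against 0.44 and 0.38 over all genes tested.

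Because 9 members passed the filter only through stomach and 1, Slc34a2, only through intestine, the counts were also taken over the 55 members detected on all 16 arrays. Of these, 10 were higher and 21 lower in C stomach, and 9 were higher and 23 lower in OH stomach. Of the 15649 genes detected on all 16 arrays, 20.4% were higher and 24% lower in C stomach, and 17.8% were higher and 20% lower in OH stomach. More members were lower than higher among those detected everywhere, too.

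**Figure D2:**
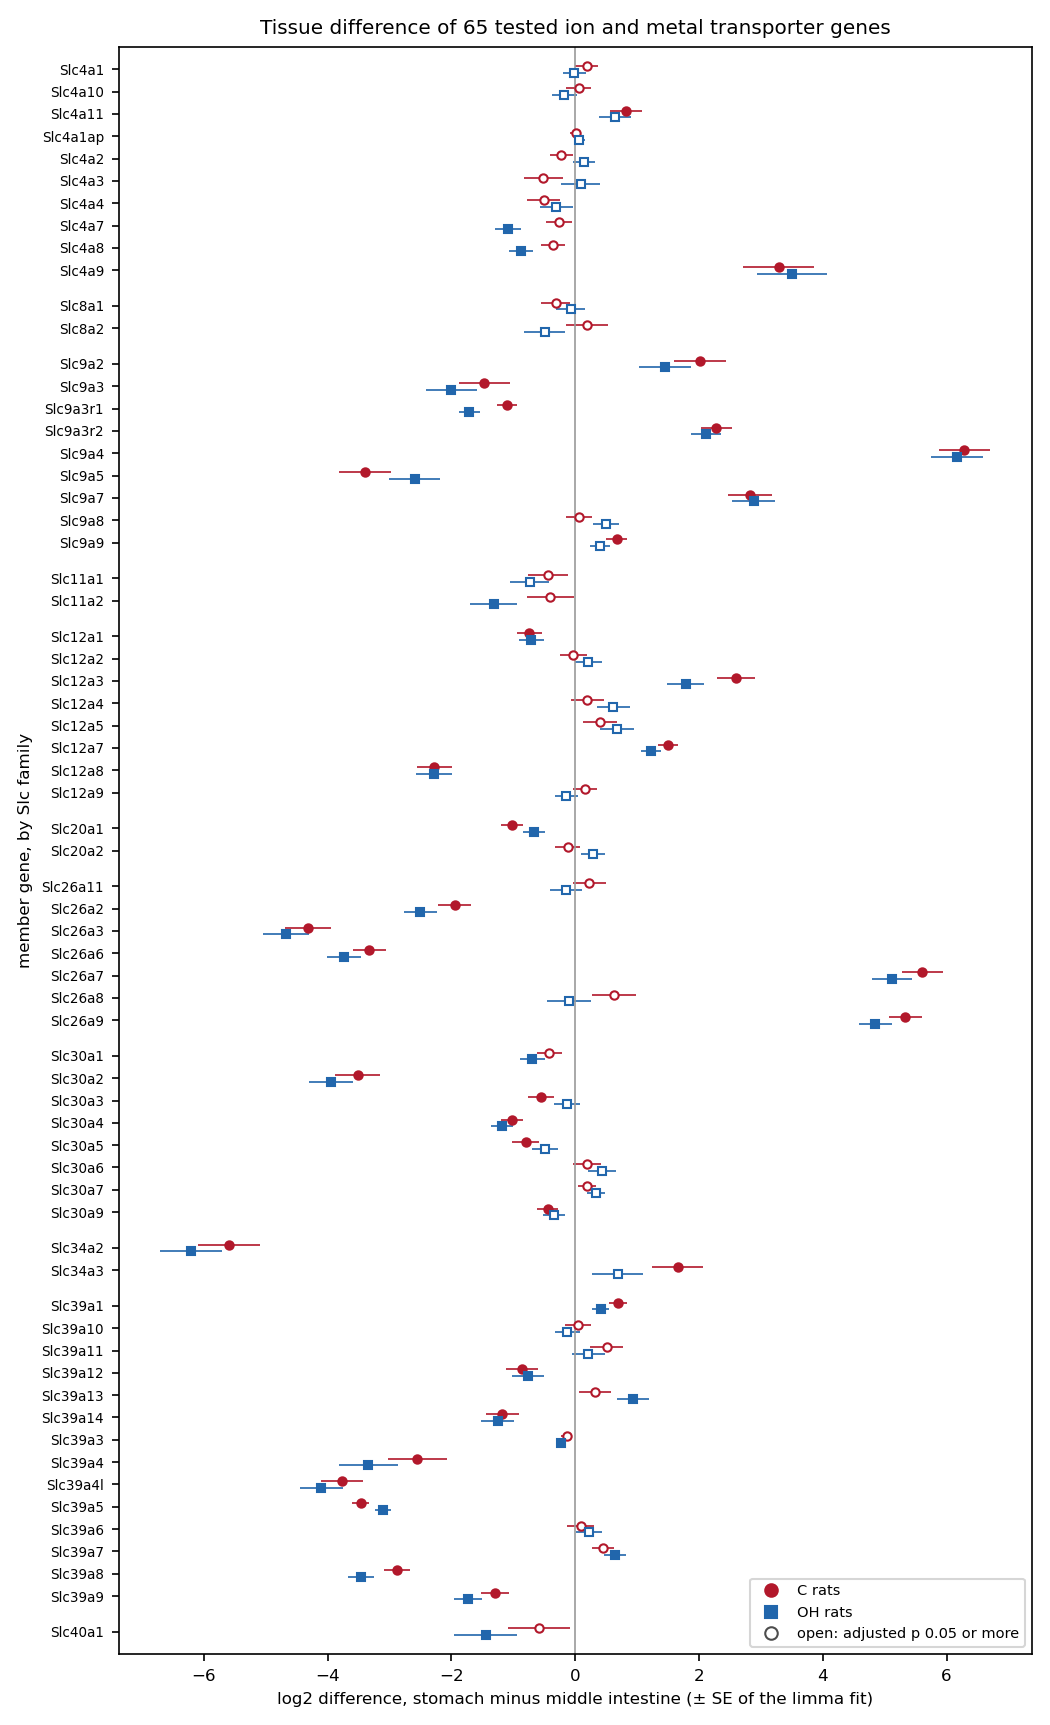
Log2 difference between stomach and middle intestine for 65 of the 68 tested members, by family, in C rats (circles) and OH rats (squares); bars are the standard error of the limma fit and open symbols have an adjusted p of 0.05 or more. Slc9a4, Slc26a7 and Slc26a9 lie farthest to the right and Slc34a2, Slc26a3 and Slc39a4l farthest to the left in C rats.

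The families are described by their counts, to be read against the 22% higher and 22.9% lower of all genes tested in C and the 19.1% and 19.3% in OH rats; differences between families were not tested. Of the Slc9 sodium-proton exchangers and their adaptors, 7 of 11 were higher in stomach and 3 lower in C rats, and 6 were higher and 3 lower in OH rats. Of the Slc39 zinc importers, 1 of 14 was higher and 7 lower in C rats and 3 higher and 8 lower in OH rats. The Slc30 zinc exporters showed 0 of 8 higher in stomach in both treatments, with 5 lower in C and 3 in OH rats. Slc26 was split, with 2 of 7 higher and 3 lower in each treatment, and so was Slc12, with 3 of 9 higher and 2 lower. Of 10 Slc4 members, 2 were higher in C stomach, while in OH stomach 1 was higher and 2 were lower. Those lower were Slc4a7 and Slc4a8, and Slc4a8 was detected on 1 OH stomach array and 0 OH middle intestine arrays. Neither tested Slc8 member passed the threshold in either treatment.

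RefSeq held a promoter for 59 of the 77 members, and 4 are shown because their genes stand at either end of the tissue difference and hold a motif of a factor known from gut or metal biology. Each run is the 250 bases before the annotated transcription start on build GRCr8, 5′ to 3′ on the gene's strand; the array's own coordinates, given with the genes below, are of the older build rn4. Capitals mark a match on either strand to AGATAA, the core bound by GATA factors, in Slc26a9, to GTTAAT, the core of the HNF1 site, in Slc26a3 and Slc39a5, and to TGCACNC or TGCGCNC, the core of the metal response element, in Slc30a2.
Slc26a9, chr13:45729833-45730082, plus strand: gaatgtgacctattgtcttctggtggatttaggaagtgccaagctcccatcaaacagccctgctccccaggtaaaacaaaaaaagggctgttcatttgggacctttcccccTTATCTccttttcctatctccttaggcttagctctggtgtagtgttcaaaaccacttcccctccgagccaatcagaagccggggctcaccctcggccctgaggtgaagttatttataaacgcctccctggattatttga
Slc26a3, chr6:53751165-53751414, plus strand: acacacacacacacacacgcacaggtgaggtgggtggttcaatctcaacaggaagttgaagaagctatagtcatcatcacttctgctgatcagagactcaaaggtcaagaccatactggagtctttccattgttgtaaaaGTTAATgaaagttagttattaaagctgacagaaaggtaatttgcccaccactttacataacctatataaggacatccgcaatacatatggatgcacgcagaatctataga
Slc39a5, chr7:1414785-1415034, minus strand: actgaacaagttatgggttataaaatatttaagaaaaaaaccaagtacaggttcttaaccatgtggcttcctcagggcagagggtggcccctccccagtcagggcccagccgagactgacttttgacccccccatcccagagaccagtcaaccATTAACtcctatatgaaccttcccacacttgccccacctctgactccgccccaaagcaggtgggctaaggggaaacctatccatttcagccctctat
Slc30a2, chr5:151843201-151843450, plus strand: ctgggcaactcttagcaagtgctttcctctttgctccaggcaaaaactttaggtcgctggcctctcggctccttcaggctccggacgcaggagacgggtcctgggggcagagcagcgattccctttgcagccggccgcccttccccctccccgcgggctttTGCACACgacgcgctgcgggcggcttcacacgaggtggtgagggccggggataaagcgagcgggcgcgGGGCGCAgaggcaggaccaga

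Over the same 250 bases, the metal response element core was found in 20 of the 59 member promoters (33.9%, against 20.6% of 33469 rat promoters). Among them were Slc30a1, Slc30a2, Slc30a4 and Slc30a5, and also Slc4a2, Slc9a7, Slc12a2 and Slc34a3. The core was in 2 of 9 promoters of members higher in stomach in both treatments and in 5 of 14 of those lower in both. It was also in 8 of 17 promoters of members called in neither treatment and in 5 of 12 of those called in 1. The HNF1 core was in 0 of 9 and 3 of 14 (6.45% of all promoters), the GATA core in 1 of 9 and 2 of 14 (10.3%), and TTTATNG, a core bound by the CDX factors, in 1 of 9 and 0 of 14 (10.1%). Among members called in neither treatment, the HNF1 core was in 2 of 17 promoters and the GATA and CDX cores in 0 of 17. Matches to different motifs were counted separately, whether or not they overlapped. They describe the letters in this window and nothing beyond it.

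The largest stomach-side differences were in exchangers known from acid-secreting and surface cells of the stomach. Slc9a4, a basolateral sodium-proton exchanger of the parietal cell (rn4 chr9:39771795-39771854), gave 2.94, 3.33, 2.84 and 2.54 on the 4 C stomach arrays and 2.15, 2.93, 3.07 and 2.66 on the OH stomach arrays. On the intestine arrays, none of which detected it, the values were -3.99, -3.80, -3.75 and -1.97 in C and -3.12, -4.33, -2.73 and -3.71 in OH rats. No stomach value came near any intestine value, and C middle intestine replicate 4 was the highest of the intestine values. Where a group had only signals below background, the fold was bounded in the Cy5 channel, as the bright group's mean over the dim group's mean of, on each array, the higher of its own signal and the lowest signal detected; with no dye swap this bound is open to dye bias. By that measure Slc9a4 was at least 86.5-fold higher in C stomach and at least 64.5-fold higher in OH stomach, with limma adjusted p = 2.66e-08 and 3.42e-08 for the ratio. Slc9a4, Slc26a7, Slc9a7, Slc26a9 and Slc4a9 passed the filter only through stomach and Slc34a2 only through intestine. That filter favours a difference, although of the 9 members passed through stomach only, 5 were called higher in C stomach. It gives no separate support for a difference in these members, and their adjusted p rest in part on signals not well above background.

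Slc26a7, a basolateral chloride-bicarbonate exchanger of parietal cells (rn4 chr5:28901375-28901517), was detected in the reference channel on 0 of 16 arrays, so its ratio to the pool rests on a signal at background. Its ratios were 5.68, 6.78, 5.80 and 5.47 in C stomach and 5.34, 6.96, 6.44 and 6.73 in OH stomach. In intestine, where no array detected it, they lay between -0.17 and 0.54 in C and between 1.09 and 1.37 in OH rats. In Cy5 alone it was at least 34.4-fold higher in C stomach and at least 25.3-fold higher in OH stomach than in intestine, with adjusted p = 6.32e-09 and 1.75e-08 for the ratio.

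Slc26a9, a chloride transporter of gastric surface cells (rn4 chr13:44695141-44695200), had values of 2.56, 2.08, 2.46 and 2.24 in C stomach and 1.04, 1.73, 1.87 and 1.19 in OH stomach, against -3.16, -2.97, -2.63 and -3.23 in C and -3.43, -3.73, -2.51 and -3.88 in OH middle intestine. Tissues did not overlap, and every OH stomach value lay below every C stomach value. The tissue difference was 5.33 ± 0.27 (SE) in C (adjusted p = 1.45e-09) and 4.85 ± 0.27 in OH rats (adjusted p = 4.46e-09). The other probe of the gene gave 5.35 and 4.70.

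Slc4a9, an anion exchanger (rn4 chr18:29179037-29179466), showed a wider spread, with 0.98, -1.18, 2.04 and 1.67 in C stomach and -0.58, 0.79, -0.36 and 1.00 in OH stomach. Intestine values were -1.51, -2.56, -2.95 and -2.62 in C rats, with 1 array detecting it, and -3.35 to -3.20 in OH rats, with none. The lowest C stomach value, on replicate 2, still lay above all 8 intestine values. The difference was 3.29 ± 0.57 in C rats (adjusted p = 0.000326); in OH rats Slc4a9 was at least 6.71-fold higher in stomach (adjusted p = 0.000222).

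The same C stomach array, replicate 2, was also apart for Slc12a3 and Slc39a2. Slc12a3, the thiazide-sensitive sodium-chloride cotransporter known from the kidney, gave 3.02, 2.03, 2.94 and 3.11 in C stomach against -0.05, 0.35, 0.82 and -0.42 in C middle intestine, and 1.57, 2.75, 2.47 and 2.02 against 0.66, 0.34, 0.17 and 0.50 in OH rats. It was higher in stomach by 2.60 ± 0.30 and 1.78 ± 0.30 (adjusted p = 9.09e-06 and 0.000322). Its other probe, detected on 5 of 16 arrays and not tested, averaged 2.13 in C stomach and 0.57 in C middle intestine. In OH rats that probe averaged 0.44 in stomach and 0.77 in middle intestine. Slc39a2, not tested, gave 1.76, -2.40, 2.13 and 1.08 in C stomach and -1.27, -0.60, -0.51 and -0.04 in OH stomach, with -2.20 to -1.92 in C middle intestine. On that array the mean of the striated muscle markers was -0.73 and that of the forestomach keratin and envelope markers 0.29, the lowest of the 4 C stomach arrays for both lists; the part of either tissue in these values was not tested. With both this array and OH middle intestine replicate 4 left out, the calls of Slc4a9 and Slc12a3 held.

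**Figure D3:**
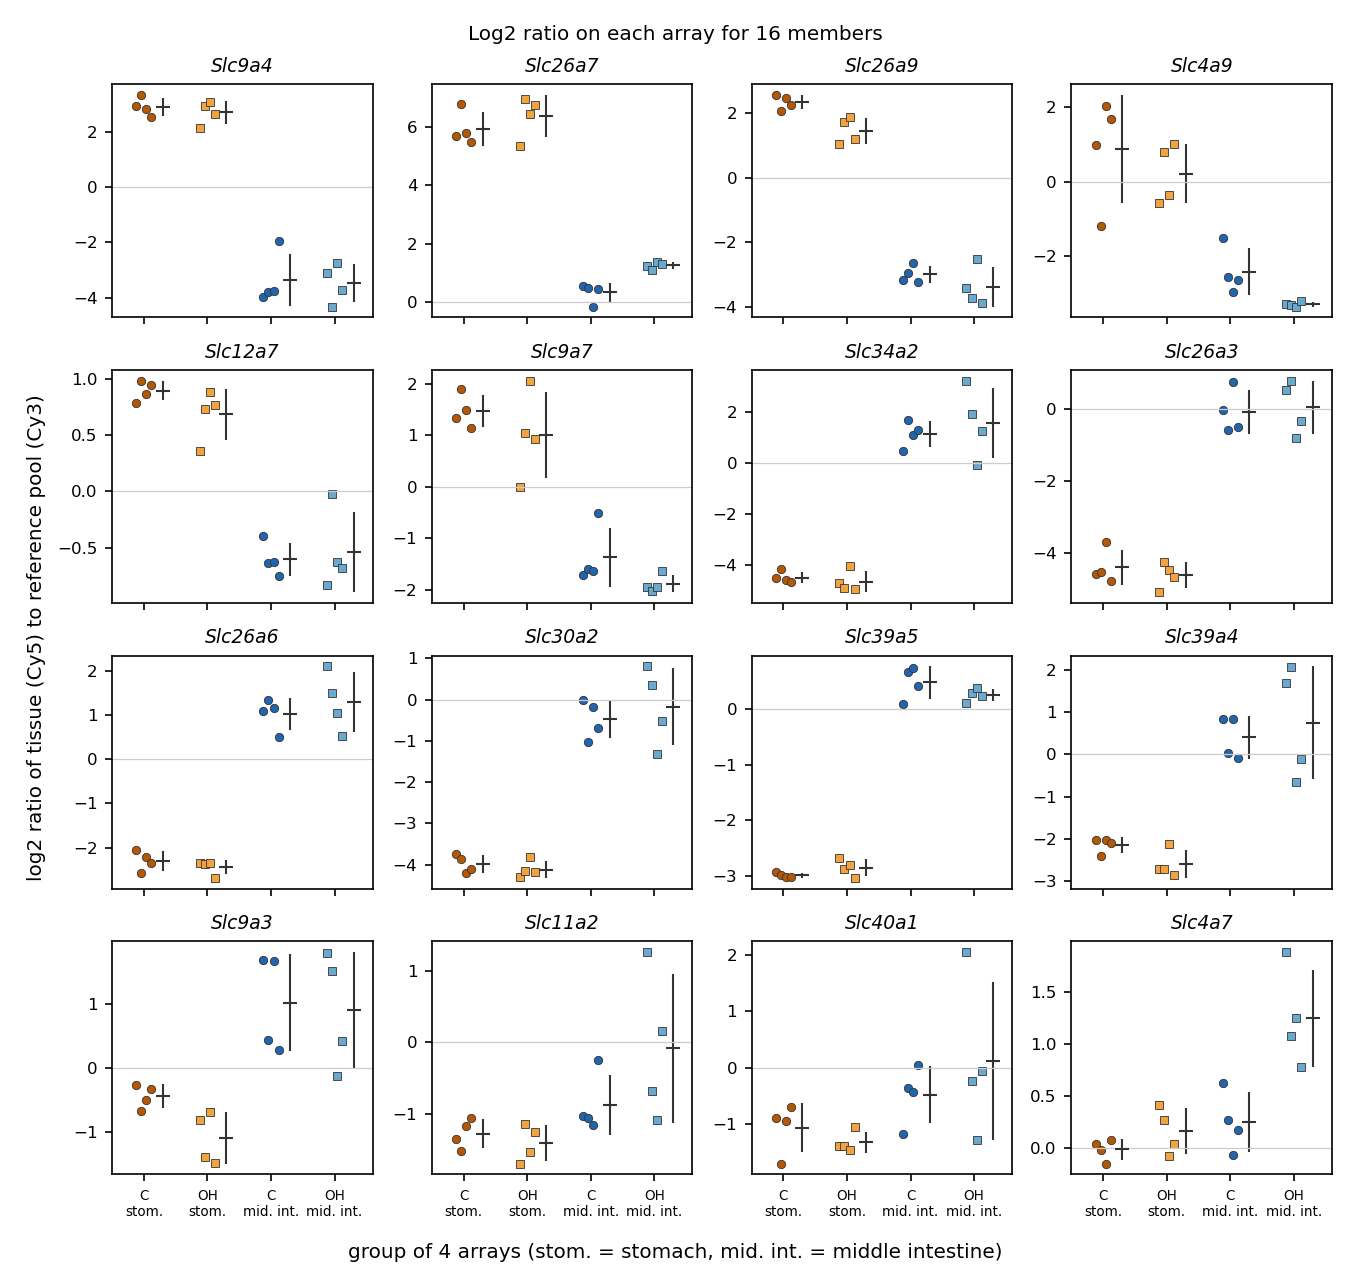
Log2 ratio of tissue to reference on each of the 16 arrays for 16 members, with the mean and SD of each group of 4 as the line beside the points; circles are C and squares OH rats. The first 6 panels show members higher in stomach and the next 7 members higher in intestine, while Slc11a2, Slc40a1 and Slc4a7 overlap between C stomach and C middle intestine.

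Slc4a2, the basolateral anion exchanger of the parietal cell, depended on the probe. Its brightest probe (rn4 chr4:6100784-6100843) gave 0.27, 0.47, 0.19 and 0.01 in C stomach and 0.40, 0.81, 0.17 and 0.46 in C middle intestine, a difference of -0.22 ± 0.18 that did not pass the test (adjusted p = 0.333), and 0.15 ± 0.18 in OH rats (adjusted p = 0.557). Its other probe (rn4 chr4:6100935-6100994) gave 1.44, 2.09, 1.43 and 1.09 in C stomach and -0.77, -0.82, -0.67 and -0.64 in C middle intestine. That probe was higher in stomach by 2.24 ± 0.21 in C (adjusted p = 8.84e-07) and by 1.96 ± 0.21 in OH rats (adjusted p = 3.80e-06). Both probes were detected on all 16 arrays and lie next to each other. By the rule of the brightest probe Slc4a2 was counted as not called, while 1 of its 2 probes was higher in stomach.

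The remaining stomach-side members described here were a sodium-proton exchanger, a potassium-chloride cotransporter and a scaffold protein. Slc9a7, an exchanger of the Golgi and endosomes that no intestine array detected, was at least 6.59-fold higher in stomach in C and at least 4.13-fold in OH rats. Slc12a7, which carries potassium and chloride out of cells, was higher by 1.5 ± 0.16 (SE) in C and by 1.22 ± 0.16 in OH rats, and its other probe by 1.91 and 1.60. Slc9a3r2, a scaffold protein that binds exchangers, was higher by 2.28 ± 0.24 and 2.11 ± 0.24. The adjusted p of Slc12a7 and Slc9a3r2 ranged from 3.90e-06 to 3.23e-05, and the arrays of the tissues did not overlap for any of these 3 members.

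Slc9a2, an apical sodium-proton exchanger, was higher in stomach by 2.02 ± 0.42 in C (adjusted p = 0.00145) and 1.45 ± 0.42 in OH rats (adjusted p = 0.0142), but OH middle intestine spread from -0.29 to 1.61 and overlapped OH stomach. Without C stomach replicate 2 and OH middle intestine replicate 4, its OH value was 1.18 with adjusted p = 0.0528. Slc34a3, a phosphate transporter known from the kidney, was higher in stomach in C rats by 1.65 ± 0.42 (adjusted p = 0.0052) and by 0.69 ± 0.42 in OH rats (adjusted p = 0.215). In OH middle intestine it gave -3.06, -0.77, -2.85 and -2.29, and without replicate 2, the highest, the OH difference was 1.17 with adjusted p = 0.00866.

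Intestine-side members opened with the partners of salt absorption. Slc26a3, an apical chloride-bicarbonate exchanger (rn4 chr6:49343402-49343461), whose promoter is printed above, gave -0.03, -0.57, 0.76 and -0.51 in C middle intestine and -4.58, -4.54, -3.71 and -4.79 in C stomach. In OH rats it gave 0.54, 0.78, -0.80 and -0.32 in intestine and -5.10, -4.24, -4.46 and -4.67 in stomach. Every stomach array lay at -3.71 or lower and every intestine array at -0.80 or higher. Stomach minus intestine was -4.32 ± 0.37 in C (19.9-fold, adjusted p = 4e-07) and -4.67 ± 0.37 in OH rats (25.4-fold, adjusted p = 1.89e-07).

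Slc26a6, an apical exchanger of chloride, bicarbonate and oxalate (rn4 chr8:113935298-113935357), gave 1.10, 1.33, 1.16 and 0.49 in C middle intestine and -2.05, -2.57, -2.23 and -2.36 in C stomach. The values in OH rats were 2.10, 1.51, 1.04 and 0.52 and -2.35, -2.38, -2.35 and -2.69. It was lower in stomach, with log2 differences of -3.33 ± 0.27 and -3.74 ± 0.27 (adjusted p = 2.2e-07 and 6.8e-08), and the tissues did not overlap. Slc26a2, a sulfate transporter, was also lower in stomach, with differences of -1.95 ± 0.26 in C and -2.50 ± 0.26 in OH rats (adjusted p = 3.24e-05 and 3.15e-06).

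Slc9a3, the apical sodium-proton exchanger of absorptive cells, was lower in stomach with its brightest probe only. That probe (rn4 chr1:29930908-29930936) gave -0.27, -0.68, -0.51 and -0.33 in C stomach and 1.68, 0.44, 1.67 and 0.28 in C middle intestine, a difference of -1.47 ± 0.41 (adjusted p = 0.01), and -2.00 ± 0.41 in OH rats (adjusted p = 0.0015). The other probe (rn4 chr1:29934709-29934768) gave -0.48 ± 0.26 and -0.40 ± 0.26, which did not pass (adjusted p = 0.140 and 0.242). Slc9a3r1, a brush border scaffold that binds the Slc9a3 protein, was lower in stomach, with differences of -1.10 ± 0.17 and -1.71 ± 0.17 (adjusted p = 0.000112 and 1.79e-06). Slc9a5, an exchanger known from brain, was lower, with differences of -3.39 ± 0.41 and -2.59 ± 0.41, with intestine values spread from -0.04 to 2.69. Slc12a8 was lower, with differences of -2.28 ± 0.28 and -2.28 ± 0.28, and its other probe gave -1.96 and -1.29.

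**Figure D4:**
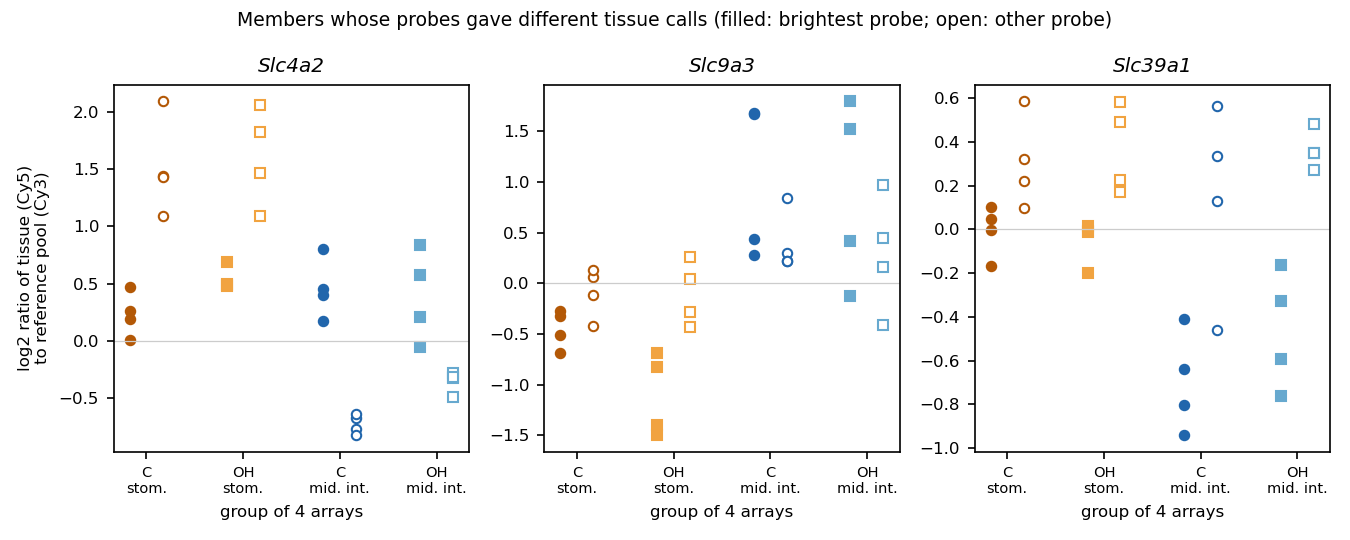
Log2 ratio on each array by the brightest probe (filled) and the other probe (open) of the 3 members whose probes gave different tissue calls in C rats. For Slc4a2 the open symbols separate stomach from intestine and the filled ones do not; for Slc39a1 the filled symbols separate the C tissues and the open ones overlap, and for Slc9a3 the open symbols differ by -0.48 in C rats, where the filled ones differ by -1.47 (stomach minus intestine).

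Of the phosphate carriers, Slc34a2 and Slc20a1 were lower in stomach in both treatments, while Slc34a3, given above, was higher in stomach in C rats. Slc34a2 (rn4 chr14:62660122-62660181) gave 0.47, 1.66, 1.07 and 1.30 in C and 3.20, 1.91, -0.07 and 1.24 in OH middle intestine, while all 8 stomach arrays lay between -4.93 and -4.04 and were below the detection limit. It was at least 29.5-fold lower in C stomach and at least 46.8-fold lower in OH stomach than in intestine (adjusted p = 5.33e-07 and 1.94e-07). Slc20a1, a phosphate carrier of most cells, was lower in stomach, with differences of -1.02 ± 0.17 and -0.66 ± 0.17 (adjusted p = 0.000256 and 0.00696). Its relative Slc20a2 differed by -0.12 ± 0.20 and 0.29 ± 0.20 and did not pass, and neither of its other 2 probes passed in either treatment.

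The size of several of these differences depended on the background correction. With normexp and an offset of 50 in place of the scanner's own subtraction, C stomach minus C middle intestine was 3.14 for Slc9a4, 1.74 for Slc26a7, 0.56 for Slc9a7, 1.05 for Slc4a9 and -1.76 for Slc34a2, against 6.29, 5.61, 2.83, 3.29 and -5.59 with the scanner's. The bounds given for these members therefore hold for the scanner's background subtraction only. It was 3.45 for Slc26a9, which 2 of 4 arrays detected in each intestine group, and 1.57 for Slc12a3, which 2 of 4 C intestine arrays detected. Among members detected on all 16 arrays, it was -3.05 for Slc26a3, -2.25 for Slc9a5, -2.43 for Slc39a4l and -2.65 for Slc30a2. All of these kept their direction and call. An offset added to both channels draws the ratios of dim probes toward zero.

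Zinc transport members made up the largest group on the intestine side. Slc39a4, the apical importer for dietary zinc (rn4 chr7:114661943-114662002), gave 0.84, 0.04, 0.84 and -0.09 in C and 1.70, 2.07, -0.66 and -0.11 in OH middle intestine, against -2.03, -2.41, -2.03 and -2.09 and -2.71, -2.70, -2.11 and -2.86 in stomach. The tissues were apart in both treatments, although the OH intestine arrays differed from each other by over 2 log2 units. The difference was -2.55 ± 0.48 and -3.34 ± 0.48 (adjusted p = 0.000633 and 7.01e-05). The feature named Slc39a4l, for which the array gives no position, gave -3.77 ± 0.34 and -4.10 ± 0.34; the names mark Slc39a4 and Slc39a4l as alike, and whether their probes share targets is uncertain.

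Slc39a5, a basolateral zinc importer (rn4 chr7:1687706-1687765), had the smallest adjusted p of all members in both treatments. Its values were 0.10, 0.67, 0.73 and 0.41 in C and 0.10, 0.28, 0.37 and 0.24 in OH middle intestine, and -2.93, -2.99, -3.03 and -3.01 and -2.67, -2.88, -2.81 and -3.04 in stomach. With 8 stomach values at -2.67 or lower and 8 intestine values at 0.10 or higher, the difference was -3.47 ± 0.13 in C (adjusted p = 6.61e-11) and -3.10 ± 0.13 in OH rats (adjusted p = 2.31e-10). Slc39a8, an importer of zinc and manganese, was lower in stomach, with differences of -2.88 ± 0.21 and -3.46 ± 0.21 (adjusted p = 6.86e-08 and 1.02e-08). Slc39a14, an importer of zinc, iron and manganese, was lower, with differences of -1.18 ± 0.27 and -1.25 ± 0.27 (adjusted p = 0.00253 and 0.00191), and its other probe was lower too, at -1.86 and -1.33. Slc39a9 was lower, with differences of -1.29 ± 0.22 and -1.73 ± 0.22.

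Slc30a2, which loads zinc into vesicles (rn4 chr5:153098295-153098354), led the exporters. It gave 0.00, -1.02, -0.18 and -0.69 in C and 0.81, 0.34, -1.31 and -0.52 in OH middle intestine, with all stomach values between -4.31 and -3.75. It was lower in stomach, with differences of -3.52 ± 0.36 (11.4-fold, adjusted p = 2.2e-06) and -3.95 ± 0.36 (15.4-fold, adjusted p = 7.2e-07). Slc30a4, a vesicular exporter, was lower, with differences of -1.02 ± 0.17 and -1.18 ± 0.17. Slc30a1, the plasma membrane exporter, differed by -0.42 ± 0.20 in C (adjusted p = 0.101) and -0.69 ± 0.20 in OH rats (adjusted p = 0.0128), and Slc30a5, of the secretory pathway, by -0.80 ± 0.22 (adjusted p = 0.00769) and -0.49 ± 0.22 (adjusted p = 0.0901). Against this direction, Slc39a1, a plasma membrane importer, was higher in stomach by 0.69 ± 0.14 (adjusted p = 0.00118) and 0.41 ± 0.14 (adjusted p = 0.0325) with its brightest probe. Its other probe gave 0.16 and 0.00 and did not pass, and the OH call was lost when any of 5 OH arrays was left out, with adjusted p from 0.0680 to 0.104.

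The iron carriers differed from array to array in OH middle intestine. Slc11a2, the apical iron importer (rn4 chr7:139094505-139094564), gave -1.35, -1.51, -1.17 and -1.06 in C stomach and -1.02, -1.06, -1.15 and -0.25 in C middle intestine, which overlapped, while OH stomach gave -1.69, -1.13, -1.53 and -1.25 and OH middle intestine 1.26, -0.68, -1.07 and 0.16. The difference was -0.40 ± 0.38 in C (adjusted p = 0.411) and -1.32 ± 0.38 in OH rats (adjusted p = 0.0131). Both other probes of Slc11a2, detected on all 16 arrays, gave 0.06 and 0.12 in C and -0.15 and -0.12 in OH rats and did not pass, and the mean of all its probes gave -0.53 in OH rats (adjusted p = 0.0614).

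Slc40a1, the iron exporter (rn4 chr9:44978571-44978630), showed the same high array. It gave 2.05, -0.25, -1.28 and -0.07 in OH middle intestine and -1.18, -0.36, -0.44 and 0.05 in C middle intestine, against -0.90, -1.71, -0.96 and -0.71 in C and -1.40, -1.40, -1.46 and -1.07 in OH stomach. Tissues overlapped in both treatments. The difference was -0.59 ± 0.51 in C (adjusted p = 0.367) and -1.45 ± 0.51 in OH rats (adjusted p = 0.0356), and the latter was -0.80 with adjusted p = 0.0732 without OH middle intestine replicate 1. The call was also lost without OH middle intestine replicate 4 or any 1 of the OH stomach arrays, with adjusted p from 0.0508 to 0.0707. The other probe of Slc40a1, detected on all 16 arrays, gave -0.18 in C and -0.96 in OH rats (adjusted p = 0.184), and the mean of both probes gave -1.21 in OH rats (adjusted p = 0.0851), so neither passed. OH middle intestine replicate 1 had the highest Slc11a2, Slc40a1 and Slc34a2 values of its group. The mean of the enterocyte markers was 0.41, 1.33, -0.92 and -0.09 on the 4 OH middle intestine arrays. Replicate 1 was thus second by that measure and replicate 3 last. Slc34a2, Slc39a4, Slc30a2 and Slc40a1 were lowest on replicate 3, whereas Slc9a3r1 and Slc39a5, also lower in stomach, were highest there. The part of enterocyte content was not tested. Slc11a1, a metal transporter of phagocytes, gave -0.44 ± 0.32 and -0.73 ± 0.32 and did not pass.

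Several carriers of general ion handling showed no called tissue difference. Slc12a2, which brings sodium, potassium and chloride into secretory cells, differed by -0.03 ± 0.22 in C (adjusted p = 0.915) and 0.21 ± 0.22 in OH rats (adjusted p = 0.468). Slc4a4, a sodium-bicarbonate cotransporter, differed by -0.51 ± 0.27 and -0.31 ± 0.27, Slc8a1, a sodium-calcium exchanger, by -0.32 ± 0.24 and -0.07 ± 0.24, and Slc9a8, an exchanger of the Golgi, by 0.06 ± 0.21 and 0.49 ± 0.21. Slc4a1, the anion exchanger of red blood cells, gave ratios between -4.48 and -3.55 in every group; the difference between tissues was 0.18 ± 0.19 and -0.02 ± 0.19. A difference that missed the threshold is not shown to be absent.

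Calls in C rats alone were Slc4a11, Slc9a9, Slc30a3, Slc30a5, Slc30a9 and Slc34a3, and in OH rats alone Slc4a7, Slc4a8, Slc11a2, Slc30a1, Slc39a3, Slc39a7, Slc39a13 and Slc40a1. The test of the difference between the C and OH tissue comparisons is the interaction given below, and it called none of them. Of 4 arrays each, 1 OH stomach and 0 OH middle intestine arrays detected Slc4a8. Its OH call therefore rests on signals mostly not well above background. Calls near the threshold were lost for Slc30a3, Slc30a9, Slc39a3 and Slc39a12 when single arrays were left out, among them C middle intestine replicate 2 for Slc39a12 (adjusted p = 0.0558). Slc4a11 lost its C call without C stomach replicate 1 (adjusted p = 0.0615) or replicate 3 (adjusted p = 0.0529) and was called in OH rats without OH stomach replicate 4 (adjusted p = 0.0175) or C stomach replicate 2 (adjusted p = 0.0277).

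With both C stomach replicate 2 and OH middle intestine replicate 4 left out, Slc30a9 lost its C call, at -0.46 (adjusted p = 0.0822). In OH rats the calls of Slc39a1 at 0.37 (adjusted p = 0.0867), Slc39a3 at -0.23 (adjusted p = 0.0567), Slc40a1 at -1.51 (adjusted p = 0.0548) and Slc9a2, given above, were lost. Slc9a8 was then called in OH rats, higher in stomach by 0.61 (adjusted p = 0.0377).

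Genes outside these families that work beside the members moved in both directions. Of 26 tested genes for metal handling, 10 were higher and 4 lower in C stomach (22% and 22.9% of all genes tested), and 11 and 4 in OH stomach (19.1% and 19.3% of all genes). Hamp, which encodes hepcidin, the hormone that removes the Slc40a1 protein, was higher in stomach by 5.02 ± 0.23 in C and 4.92 in OH rats, and the metallothionein Mt2A by 1.72 and 1.57. Heph, the ferroxidase that works with the Slc40a1 protein, was lower in stomach, with differences of -3.58 and -3.76, as was Slc31a1, a copper importer, with -1.45 and -1.83. Of 42 tested pumps, channels and partners, 16 were higher and 10 lower in C stomach and 18 and 11 in OH stomach, against the same background. The proton pump subunits Atp4a and Atp4b were higher in stomach by 4.45 and 5.73 in C rats, and Car2, a carbonic anhydrase, by 4.99. Cftr, an apical chloride channel, was lower in stomach, with differences of -2.54 and -2.71, as was S100g, a calcium carrier of enterocytes, with -5.64 and -7.21. All limma adjusted p values named here were 0.00113 or lower. In stomach and in intestine, 0 genes of either list were called between OH and C.

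Obestatin treatment gave no called member in stomach. limma called 0 of 68 members between OH and C stomach and 0% of all genes tested, and 5 members had an unadjusted p under 0.05 (7.35%, against 10.7% of all genes). One-way ANOVA with Tukey's test called 1 member, Slc26a9 (background 3.43% of all genes). The smallest adjusted p of a member was 0.312, for Slc26a9, whose C and OH stomach values are given above. It differed by -0.88 ± 0.27, with the 4 OH arrays all below the 4 C arrays (exact two-sided permutation p = 0.0286, the smallest that 4 against 4 arrays can give), and by -0.65 in its other probe (adjusted p = 0.624). The arrays of OH and C were apart in 7 of 68 members (10.3%, against 7.76% of all genes).

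The other 4 were Slc30a3, a vesicular zinc exporter (0.55 ± 0.21), Slc4a3, an anion exchanger (0.73 ± 0.32), Slc12a1, a sodium-potassium-chloride cotransporter known from the kidney (0.45 ± 0.20), and Slc26a11 (-0.61 ± 0.26), with adjusted p from 0.402 to 0.460. For Slc4a3 the OH stomach arrays gave 1.01, -0.51, -0.89 and 0.32 and overlapped C stomach, and Slc30a3 gave 1.33, 0.36, 0.32 and 0.94 on the same arrays. The mean of 8 smooth muscle markers on these arrays was 0.96, -1.32, -2.59 and 0.16, against -2.57 to -1.38 in C stomach, and 0 of the 8 were called between OH and C stomach. Both members and the markers were thus higher on replicates 1 and 4 than on replicates 2 and 3; the part of smooth muscle in these values was not tested. In Slc12a1 the tissue channel changed by 0.01 and the reference channel by -0.44, and the cause was not tested.

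In middle intestine 0 of 68 members were called, against 0.246% of all genes tested, and 8 had an unadjusted p under 0.05, 7 of them higher in OH (11.8%, against 9.59% of all genes). ANOVA with Tukey's test called 3, Slc4a7, Slc9a3r1 and Slc39a3 (background 4.01%). Slc4a7, a sodium-bicarbonate cotransporter (rn4 chr15:12084114-12087723), came nearest, with 0.63, 0.27, -0.07 and 0.17 in C and 1.89, 1.08, 1.25 and 0.78 in OH middle intestine. All 4 OH values lay above all 4 C values. The difference was 1.00 ± 0.21 with limma adjusted p = 0.0533. Adjusted p was 0.0415 with the replicate number as a block, although OH and C arrays of the same number stand for different rats. It was 0.0420 over probes detected on all 16 arrays and 0.0120 with no filter on detection. Within that difference the tissue channel rose by 0.16 and the reference channel, which held the same pool on every array, changed by -0.84.

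The reference channel also changed by more than the tissue channel for the next members in order of p, and the cause was not tested. Slc9a3r1 differed by 0.60 ± 0.17 (adjusted p = 0.162), with changes of 0.15 in Cy5 and -0.45 in Cy3. Slc26a7, undetected in intestine, differed by 0.92 ± 0.33, Slc39a9 by 0.62 ± 0.22 and Slc26a2 by 0.68 ± 0.26, with Cy3 changes of -0.70, -0.91 and -0.63. In Slc39a9 the tissue channel changed the other way, by -0.30. Over the 68 members the reference channel changed by more than the tissue channel in 38 between OH and C middle intestine and in 23 in stomach, but in 9 and 2 in the tissue comparisons of C and OH rats. All genes tested showed the same order of channels. In middle intestine the median size of change was 0.27 in Cy3 and 0.20 in Cy5 for members, and 0.17 and 0.16 for all genes. In stomach it was 0.13 and 0.25 for members, and 0.12 and 0.18 for all genes. The pool was the same on both slides, so in these values the treatment cannot be told apart from slide or scan day. With Cy5 alone, none of the 5 was called and 1 other member was, Slc9a8, lower in OH with a difference of -1.28 (adjusted p = 0.04405). In Slc9a8 the reference channel changed by -0.998, and the ratio differed by -0.27 (limma adjusted p = 0.727).

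**Figure D5:**
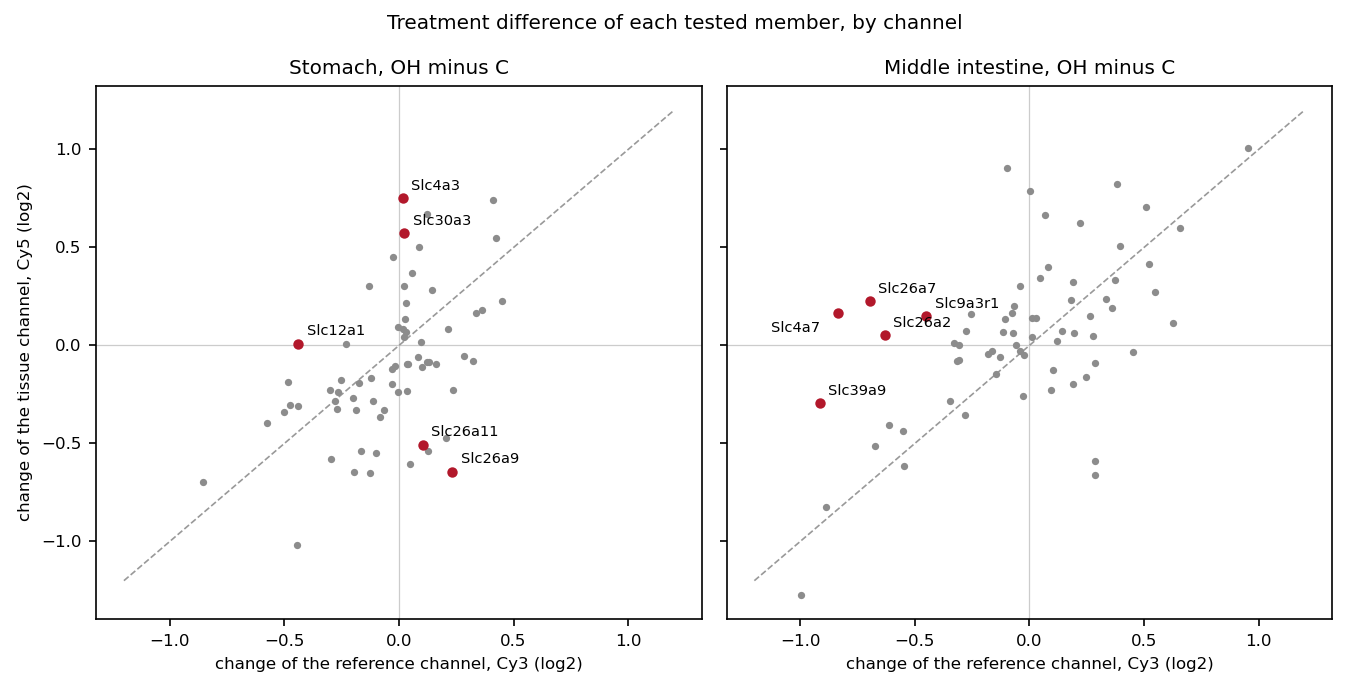
Change between OH and C arrays in the tissue channel (Cy5, vertical axis) against the change in the reference channel (Cy3, horizontal axis), both log2 after normalisation between arrays, for the 68 tested members in stomach (left) and middle intestine (right). Red points are the 5 members with the smallest p in each tissue and the dashed line marks equal change; in middle intestine the 5 red points lie left of zero on the reference axis.

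For the carriers with the clearest place in absorption, the OH and C intestine values overlapped. OH minus C was 0.14 ± 0.37 for Slc26a3, 0.27 ± 0.27 for Slc26a6, -0.11 ± 0.41 for Slc9a3, 0.44 ± 0.50 for Slc34a2, 0.34 ± 0.48 for Slc39a4, 0.79 ± 0.38 for Slc11a2 and 0.60 ± 0.51 for Slc40a1. Their adjusted p ranged from 0.501 to 0.978. In stomach, OH minus C was -0.21 ± 0.42 for Slc9a4, 0.43 ± 0.33 for Slc26a7 and 0.30 ± 0.18 for the brightest probe of Slc4a2, with adjusted p from 0.577 to 0.893. The standard errors of these differences ran from 0.18 to 0.51 with 4 arrays a group, so that a missed threshold does not show equal levels.

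No member responded to treatment differently in the tissues by the interaction test. limma called 0 of 68 members and 0% of all genes tested, and 2 members had an unadjusted p under 0.05 (background 5.53%). These were Slc4a7, with a response in stomach minus that in intestine of -0.82 ± 0.29, and Slc9a3r1, with -0.61 ± 0.24, both at adjusted p = 0.836. The third in order of p was Slc39a5, with responses of 0.14 in stomach and -0.23 in intestine.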

How the data were processed

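Tissue RNA (Cy5) was hybridised with a common reference pool (Cy3) on 16 two-colour Agilent rat arrays of 62976 spots. The deposited intensity values were the red and green processed signals of the scanner software, which the authors obtained with Agilent Feature Extraction (version 10.10.1.1 per the file headers, 10.7.3.1 in the submitters' processing notes), with background subtracted and dyes normalised. The deposited series table of values held log10 ratios of Cy5 over Cy3, which were identical to the scanner output on 15 of 16 arrays. On the other array, OH stomach replicate 1, the scanner file had been saved again with rounded values.

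Here log2 of red over green was averaged over the spots of a probe, without control spots and outlier flags. A probe was kept where every array of some group, 4 in each, read well above background in the tissue channel and each group had 3 or more values, which left 21174 of 30367 probes. One mean per group was fitted with limma 3.58.1 in R 4.3.3, with a prior of 2.47 degrees of freedom and Benjamini-Hochberg adjustment over all kept probes at 0.05. The contrasts were stomach against middle intestine in C and in OH, OH against C in each tissue, and the difference of both responses. Scripts were tested on simulated data. The number of arrays limits the precision.

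Genes were named by rule: the tissue extreme of each family, the 12 largest tissue differences in each direction, the 5 smallest p between OH and C, the 3 smallest p of the interaction, members with a known gut role, and members detected nowhere. Some tested members are counted but not reported here by name. Others named were chosen after their values were seen. The members and lists were chosen with earlier results of these data known. Replicate numbers were not used as pairs: whether stomach and intestine of a number came from the same rat is not given in the sources used here. Alternatives were other background and scaling methods, Cy5 alone, other filters, the mean of all probes, a replicate block (also within a treatment, chosen after seeing the data), ANOVA with Tukey's test, and leaving out arrays; the last included leaving out 2 arrays together, chosen after seeing the data. Of the 77 symbols, 69 matched RefSeq, where Slc9a3r1 and Slc9a3r2 are now Nherf1 and Nherf2.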

Additional observations from a re-analysis of the deposited data

Results flagged for a closer look

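In 184 groups of 4 arrays, over the named members, 11 had an array far from the other 3, where chance alone gives about 1 in 20, or 9.2. Dixon's ratio, the gap over the range, was above the critical value for 4 samples in each. In C middle intestine, replicate 4 was high for Slc9a4 (-1.97 against -3.99 to -3.75, ratio 0.884), for Slc9a7 (-0.50 against -1.72 to -1.59, ratio 0.893) and for Slc11a2 (-0.25 against -1.15 to -1.02, ratio 0.851). Replicate 3 of that group was low for Slc26a7 (-0.17 against 0.44 to 0.54, ratio 0.861). No intestine array detected Slc9a4, Slc9a7 or Slc26a7, so those ratios came from signals below background.

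In C stomach, replicate 2 was low for Slc12a3 (2.03 against 2.94 to 3.11, ratio 0.843) and for Slc39a4 (-2.41 against -2.09 to -2.03, ratio 0.839), and high for Slc39a9 (-0.16 against -1.02 to -0.89, ratio 0.844). It was also the array low in striated muscle markers. In OH stomach, replicate 4 was low for Slc26a6 (-2.69 against -2.38 to -2.35, ratio 0.918) and high for Slc40a1 (-1.07 against -1.46 to -1.40, ratio 0.845), and replicate 3 was high for Slc4a2 (0.69 against 0.48 to 0.49, ratio 0.926). In OH middle intestine, replicate 1 was low for Slc9a5 (-0.04 against 0.84 to 0.88, ratio 0.958).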

How the results depend on the processing

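Of 29 called differences between C stomach and C middle intestine of members named for that comparison, all kept their direction in the alternatives run, and all kept their call except Slc30a5, lost with scaled arrays and with Cy5 alone; 22 could be tested over probes detected on all 16 arrays. Other called members (Slc4a11, Slc30a3, Slc30a9 and Slc39a12) lost their C call as the text gives, and the lost OH calls stand there too. Leaving out 1 array gave 35 to 38 called members in C, 37 to 42 in OH and 0 to 0 in each treatment comparison and the interaction. With the replicate block 37, 41, 0, 1 and 0 members were called in C, OH, OH against C in stomach, in middle intestine, and the interaction; across treatments, where numbers stand for different rats, r of same-numbered arrays was -0.40 to 0.51. Within a treatment, stomach and intestine of a number may come from 1 rat, which the sources used here do not say. There r was 0.0581 to 0.246 in C (over 0.1, and best with the own number, in 3 of 4) and -0.12 to 0.32 in OH (2 of 4). With that number as a block on the arrays of each tissue comparison alone, an alternative chosen after seeing the data, 37 members were called in C and 35 in OH. Between OH and C middle intestine, 1 member was called with Cy5 alone (Slc9a8), 1 with no filter, 1 over probes on all 16 arrays and 1 with the block (Slc4a7 each), 3 by ANOVA with Tukey's test and 8 without adjustment. In stomach these last were 1 and 5, and for the interaction 2 without adjustment.

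Small differences changed sign. C stomach minus C middle intestine became -0.0412 for Slc9a8 and 0.0209 for Slc12a2 with normexp background. It was -1.62 for Slc4a1 and 0.36 for Slc12a2 with scaled arrays. With Cy5 alone it was -0.0518 for Slc4a1, 0.0658 for Slc4a4 and -0.44 for Slc9a8. The mean of all probes gave 0.0872 for Slc12a2. For Slc4a2 that mean gave 1.01 in C rats (limma adjusted p = 0.000122) and 1.05 in OH rats (limma adjusted p = 9.03e-05). Slc4a2 was thus called higher in stomach in both treatments by the mean of its probes. Leaving out 1 array gave -0.0671 (without C stomach replicate 2) to 0.117 for Slc9a8, and -0.181 to 0.118 (without C stomach replicate 3) for Slc12a2; with both arrays that stand apart left out, Slc9a8 was again at -0.0671. With Cy5 alone OH minus C became -7e-04 for Slc12a1 in stomach and -0.0175 for Slc26a7 and -0.30 for Slc39a9 in middle intestine. The cause was not tested. Members below background had only bounds. The interaction was not run on the arrays of 1 contrast alone or by ANOVA.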
